A study of Rattus norvegicus with 32 samples.

Results

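Ccl21, Mmrn1, Reln, Pdpn and Prox1, 5 genes used as markers of lymphatic endothelium, were followed in RNA of rat liver sinusoidal endothelial cells (LSECs), the fenestrated cells that line the smallest liver vessels. Each symbol was carried by 1 row of the expression table, so that 5 of 32623 genes were taken (Ccl21 ENSRNOG00000034290, Mmrn1 ENSRNOG00000024986, Reln ENSRNOG00000021441, Pdpn ENSRNOG00000014961, Prox1 ENSRNOG00000003694). They were picked with the high level of Ccl21 in cirrhosis against healthy LSECs in view. Values of these 5 genes that involve healthy or cirrhotic libraries are therefore given as a description. Tests of the 5 are given for fibrosis against acute injury and for the thioacetamide (TAA) experiment. Calls and p-values of related genes are no independent support, because the lists were chosen with earlier results of these data known.

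LSECs came from male rats, and the labels name the strain Wistar Han for all 32 libraries. In the carbon tetrachloride (CCl4) model, a hepatotoxin was inhaled for 2 weeks (acute injury, 5 rats), 6 weeks (fibrosis, 5 rats) or 12 to 14 weeks (cirrhosis, 6 rats), and 6 rats were healthy and untreated. The drinking water of the CCl4 model held phenobarbital, and whether healthy rats drank it too was not stated. Cells were purified on a density gradient some days after the last dose, and the labels name no sort, so that other liver cells could remain. In the TAA experiment, 5 libraries are labelled control and 5 are labelled TAA control. The design text and the methods describe Sprague-Dawley rats, of which 5 were healthy and 5 had TAA cirrhosis, and the labels do not settle which group received TAA. The difference is coded as the group labelled TAA control minus the group labelled control, and no direction of the toxin's effect can be drawn from it.

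Total expected counts per library ranged from 28205908 to 46464289 in the CCl4 model and from 25646531 to 32631606 in the TAA experiment. Levels are CPM (counts scaled to a common library total) after TMM scaling within each of the 2 experiments, so levels are not set against each other across experiments, nor between genes, whose lengths were not used. A summed level of 7 LSEC markers (Stab2, Stab1, Lyve1, Clec4g, Fcgr2b, Mrc1 and Oit3) was 11700 to 21400 CPM in healthy, 1760 to 2260 in acute, 1180 to 1980 in fibrosis and 11400 to 14600 in cirrhosis libraries. Of these 7, 6 fell in acute and 7 in fibrosis against healthy LSECs, as did 37.9% and 34.9% of all genes. The labelled cell type was thus weak in these markers at 2 and 6 weeks, and the acute and fibrosis libraries stand apart from the others in each comparison below. Of 7 blood endothelium markers, 5 fell in each of these 2 comparisons. Cdh5 was called in neither, with 775 to 1760 CPM in healthy, 1320 to 2150 in acute and 887 to 1210 in fibrosis libraries. The LSEC sum was 17300 to 21000 CPM in the group labelled control and 19700 to 26000 in the group labelled TAA control. Within the latter, replicates 14 and 15 nearly matched, with a chi-square per degree of freedom of 3.05 over genes, where the next closest libraries of one group had 25.2. Whether they come from separate rats was not tested.

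Lymphatic endothelial cells line the vessels that drain tissue fluid and lead immune cells to lymph nodes. The transcription factor PROX1 sets and keeps their identity, the chemokine CCL21 draws dendritic cells and T cells that carry its receptor CCR7, the membrane glycoprotein podoplanin (Pdpn) binds CLEC-2 on platelets, and reelin (Reln) and multimerin-1 (Mmrn1) are secreted. In the liver these vessels run in the portal tracts. None of the genes is limited to this cell type: reelin is also made by hepatic stellate cells, Prox1 by hepatocytes, podoplanin by mesothelium and reticular fibroblasts, Ccl21 by reticular stroma of lymphoid tissue and multimerin-1 by platelets and their precursors.

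The 250 bases before the start of each gene are shown as a description. Among the CCl4 groups, Ccl21 and Mmrn1 were high in cirrhosis, the group with which the genes were picked, while Reln was highest in the acute and fibrosis libraries. RefSeq on GRCr8 held 4 of the 5, and Prox1 was not matched. Capitals mark the GC box (GGGCGG on either strand). The windows are chr5:61777516-61777765 on the minus strand for Ccl21, chr4:91233166-91233415 on the plus strand for Mmrn1, chr5:160918960-160919209 on the minus strand for Pdpn and chr4:13628318-13628567 on the plus strand for Reln.
Ccl21: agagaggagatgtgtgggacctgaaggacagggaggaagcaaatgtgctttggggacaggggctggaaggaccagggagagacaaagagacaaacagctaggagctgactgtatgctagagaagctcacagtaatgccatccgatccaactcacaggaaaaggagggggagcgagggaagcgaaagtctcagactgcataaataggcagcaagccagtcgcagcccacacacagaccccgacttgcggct
Mmrn1: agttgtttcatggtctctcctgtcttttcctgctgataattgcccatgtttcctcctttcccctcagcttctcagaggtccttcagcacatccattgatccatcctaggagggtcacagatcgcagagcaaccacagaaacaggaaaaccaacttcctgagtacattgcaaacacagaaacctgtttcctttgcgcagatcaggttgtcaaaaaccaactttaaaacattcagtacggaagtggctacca
Pdpn: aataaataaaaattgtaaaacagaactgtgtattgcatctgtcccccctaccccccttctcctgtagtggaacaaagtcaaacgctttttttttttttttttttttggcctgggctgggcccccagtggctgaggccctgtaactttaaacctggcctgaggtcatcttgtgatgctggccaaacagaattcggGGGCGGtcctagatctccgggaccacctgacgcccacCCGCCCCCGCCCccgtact
Reln: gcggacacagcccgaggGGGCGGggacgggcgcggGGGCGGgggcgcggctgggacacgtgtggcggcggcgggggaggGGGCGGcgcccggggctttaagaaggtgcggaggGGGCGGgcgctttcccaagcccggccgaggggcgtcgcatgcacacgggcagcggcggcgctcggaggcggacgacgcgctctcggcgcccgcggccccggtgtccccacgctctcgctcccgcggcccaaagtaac
The Reln window was 80.0% G and C and held 4 GC boxes, and that of Pdpn was 51.6% and held 3. The windows of Ccl21 (54.8%) and Mmrn1 (45.6%) held 0. Over the 33465 rat promoters of the same length, the median was 51.2%, the 5th and 95th percentiles were 34.0% and 72.8%, and 30.5% held a GC box. The letters ACAAT, bound by SOX factors, occurred once in Pdpn and not in the other windows (30.0% of promoters), and the TATA box TATAAA occurred in none of the 4 (12.9%). The E-box CANNTG occurred once in Ccl21 and Reln, 2 times in Pdpn and not in Mmrn1 (65.5%). Both strands were searched and matches could overlap. A match is a description of the letters and not evidence of binding.

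**Figure D1:**
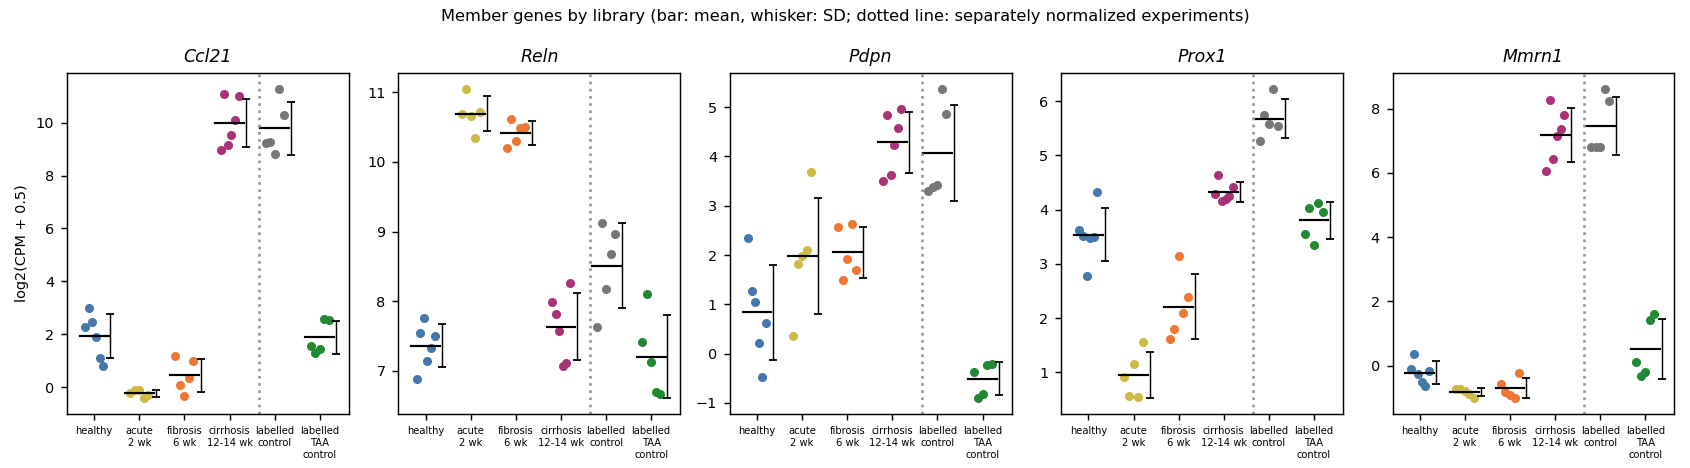
Level of each gene in every library as log2(CPM + 0.5), with 1 point per library, a bar at the mean of the logged values and a whisker of 1 SD. The CCl4 groups stand left of the dotted line and the separately normalized TAA experiment right of it. Ccl21 and Mmrn1 are high in the cirrhotic libraries and in those labelled control, whereas Reln is highest in the acute and fibrosis libraries.

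Ccl21 was low in 3 of the 4 CCl4 groups and abundant in cirrhosis. Healthy libraries ranged from 1.24 to 7.56 CPM with a median of 3.79 (47 to 221 counts). The 5 acute libraries had 0.354, 0.436, 0.444, 0.253 and 0.316 CPM, which rest on 10 to 16 counts each. The 5 fibrosis libraries had 1.75, 0.562, 0.299, 0.775 and 1.52 CPM (9 to 61 counts). All acute libraries therefore lay below all healthy ones, while 2 fibrosis libraries reached into the healthy range. In cirrhosis the 6 libraries ranged from 504 to 2144 CPM with a median of 918 (mean 1185 ± 740, SD, n = 6), and every one lay above every library of the other CCl4 groups. In limma-voom fits of 2 groups each, the log2 fold change of Ccl21 was 8.33 (SE 0.53) for cirrhosis minus healthy, 10.21 (SE 0.84) for cirrhosis minus fibrosis, -3.08 (SE 0.55) for acute minus healthy and -1.85 (SE 0.59) for fibrosis minus healthy. In bulk RNA, fewer cells of a type and less RNA per cell cannot be told apart, here and in all that follows.

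Mmrn1, like Ccl21, was low before cirrhosis and high in cirrhosis. Healthy libraries ranged from 0.143 to 0.787 CPM (median 0.358), which are 4 to 23 counts. The acute libraries held 4, 4, 3, 2 and 0 counts and the fibrosis libraries 6, 2, 1, 0 and 12 counts. A count of 0 allows up to 3 counts, or 0.0947 CPM in acute replicate 8 and 0.0861 CPM in fibrosis replicate 16. At this depth Mmrn1 could thus be measured in few reads only before cirrhosis, and it passed the filter on low counts in 3 of 6 comparisons (the other 4 genes in 6 of 6). Cirrhosis libraries ranged from 65.6 to 307 CPM (median 154), without overlap with any other CCl4 group. The log2 fold change was 8.70 (SE 0.65) for cirrhosis minus healthy and 10.76 (SE 1.55) for cirrhosis minus fibrosis, the latter resting on the few reads in fibrosis.

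Pdpn was low and variable outside cirrhosis. Healthy libraries ranged from 0.215 to 4.59 CPM (median 1.30), and the acute libraries had 0.789, 3.02, 3.44, 3.80 and 12.3 CPM. The fibrosis libraries had 5.45, 2.31, 3.26, 5.65 and 2.74 CPM. Groups overlapped in all comparisons among healthy, acute and fibrosis libraries, with acute replicate 8 above all others. In cirrhosis, 10.8 to 30.8 CPM (median 21.0) were measured, above every healthy and every fibrosis library, although the lowest cirrhosis library lay below acute replicate 8. The log2 fold change of Pdpn was 4.07 (SE 0.56) for cirrhosis minus healthy, 2.39 (SE 0.42) for cirrhosis minus fibrosis, 1.53 (SE 0.77) for acute minus healthy and 1.74 (SE 0.58) for fibrosis minus healthy. Mesothelium also makes podoplanin. Its 6 markers summed to 4.43 to 95.5 CPM in healthy, 0.490 to 1.83 in acute, 2.25 to 4.99 in fibrosis and 6.95 to 14.4 in cirrhosis libraries. In cirrhosis against healthy 0 of these 6 were called by limma-voom, 2 were lower at an unadjusted p, 2 with edgeR and 3 with DESeq2. The mesothelial sum and Pdpn put the 6 healthy libraries in the same order, from replicate 1 (95.5 and 4.59 CPM) to replicate 5 (4.43 and 0.215 CPM). In cirrhosis the orders differed, and replicate 2 had the lowest sum (6.95 CPM) with 28.2 CPM of Pdpn. The part of mesothelium in the level of Pdpn was not tested.

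Prox1 was low at 2 weeks and highest in cirrhosis. Healthy libraries ranged from 6.39 to 19.4 CPM (median 10.9). The acute libraries had 1.39, 0.980, 1.72, 0.967 and 2.46 CPM and the fibrosis libraries 2.58, 2.995, 8.31, 3.79 and 4.75 CPM. Acute and healthy libraries did not overlap, whereas fibrosis replicate 15 reached above the lowest healthy library. Cirrhosis libraries had 17.3 to 24.5 CPM (median 18.8), and 1 healthy library, replicate 6 with 19.4 CPM, reached into this range while the other 5 healthy libraries stood at 11.9 CPM or below. The log2 fold change of Prox1 was -2.98 (SE 0.36) for acute minus healthy, -1.40 (SE 0.34) for fibrosis minus healthy, 0.80 (SE 0.21) for cirrhosis minus healthy and 2.27 (SE 0.23) for cirrhosis minus fibrosis. The range of Prox1 within cirrhosis was narrow, with the highest library 1.42 times the lowest, against 4.25 times for Ccl21 and 4.69 times for Mmrn1.

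Reln went another way. Healthy libraries ranged from 118 to 216 CPM (median 170). The acute libraries had 1654, 2123, 1618, 1305 and 1689 CPM and the fibrosis libraries 1174, 1570, 1256, 1440 and 1447 CPM. Every library of the 2 groups thus lay above every healthy and every cirrhosis library, the latter with 134 to 306 CPM (median 207) and overlapping with healthy ones. The log2 fold change of Reln was 3.38 (SE 0.18) for acute minus healthy, 3.13 (SE 0.16) for fibrosis minus healthy, 0.29 (SE 0.22) for cirrhosis minus healthy and -2.79 (SE 0.22) for cirrhosis minus fibrosis. Stellate cells also make reelin. The sum of 8 stellate cell markers was 32.5 to 122 CPM in healthy, 5.77 to 19.4 in acute, 29.1 to 147 in fibrosis and 108 to 310 in cirrhosis libraries. It was lowest in the acute libraries, where Reln was high. Of these 8 markers, 6 were called lower in acute against healthy LSECs, as were 37.9% of all genes. The part of stellate cells in the level of Reln was not tested.

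These described levels stand against a background of wide change. Groups did not overlap in either direction in 60% of 14317 genes for acute against healthy, 58.7% of 14538 for fibrosis against healthy, 27.2% of 14789 for cirrhosis against healthy and 63.3% of 15186 for cirrhosis against fibrosis. In cirrhosis against healthy, 10.1% of genes had all cirrhosis libraries higher, as had Ccl21, Mmrn1 and Pdpn, and nothing is read from these 3 because the choice of genes used this comparison. All comparisons with healthy libraries share the same 6 libraries, and the 2 described here with fibrosis share those 5. The tested comparison of fibrosis with acute injury uses the same fibrosis and acute libraries.

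**Figure D2:**
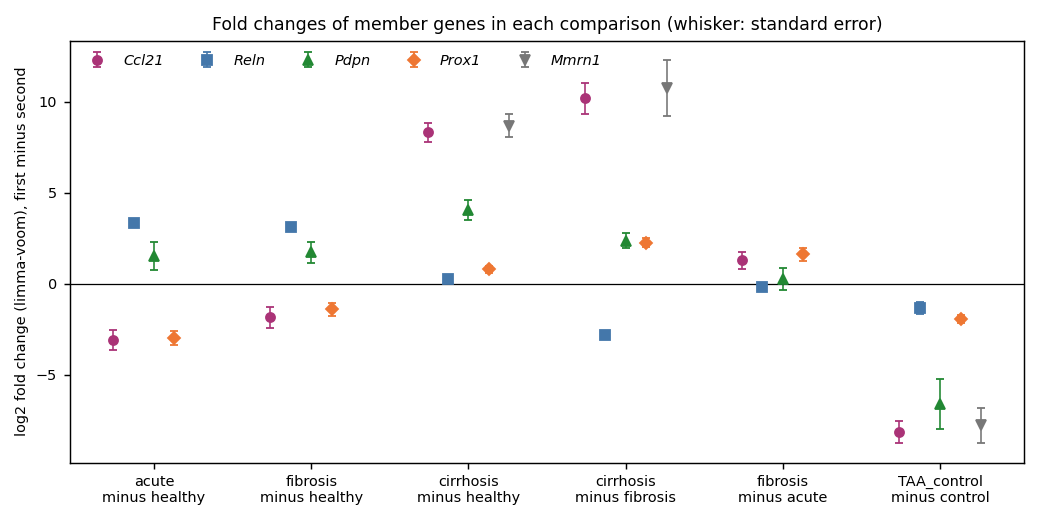
Log2 fold change of each gene from limma-voom in the 6 comparisons, with whiskers of 1 standard error. Only the last 2 comparisons carry a test of these genes, Mmrn1 has no value where it did not pass the filter, and Ccl21 and Mmrn1 have the points farthest from 0 in the cirrhosis comparisons and in the TAA experiment.

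Fibrosis against acute injury asks whether these genes differ between 6 and 2 weeks of CCl4, with neither healthy nor cirrhotic libraries in the fit. Prox1 rose 3.08-fold (log2 fold change 1.62, SE 0.37, limma-voom adjusted p = 0.0147 over all genes tested), with all 5 fibrosis libraries above all 5 acute ones, as in 6.48% of all genes. The exact two-sided permutation p of Prox1 was 0.00794, unadjusted and the smallest that 5 against 5 libraries can give. A gene was called at an adjusted p under 0.05 with a fold over 1.5, which held for 1 of the 4 genes tested and for 11% of all 13931 genes (10.2% higher and 0.732% lower). The log2 fold change of Ccl21 was 1.29 (SE 0.49, adjusted p = 0.0847), and it was not called. Its adjusted p in limma-voom was 0.0298 without fibrosis replicate 15 (log2 fold change 1.62), the library with the lowest Ccl21 level of that group. For Ccl21 it was 0.0391 with edgeR's quasi-likelihood test and 0.0156 with DESeq2, and over 17 alternatives it ranged from 0.0156 to 0.459. Reln had a log2 fold change of -0.20 (SE 0.12, adjusted p = 0.266) and Pdpn of 0.26 (SE 0.59, adjusted p = 0.779), where the sign of Pdpn turned with edgeR (-0.18), with DESeq2 (-0.20) and without acute replicate 1 (-0.24).

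Hepatocytes also express Prox1, and their markers moved with it. All 8 hepatocyte markers rose in fibrosis against acute LSECs (median log2 fold change 2.87), as did 10.2% of all genes. Their summed levels were 1310 to 5150 CPM against 145 to 919 CPM. The fibrosis library with the highest hepatocyte sum was replicate 16 (5150 CPM, Prox1 3.79 CPM), and the one with the highest Prox1 was replicate 15 (8.31 CPM, hepatocyte sum 3970 CPM). Healthy replicate 5 had a hepatocyte sum of 1300 CPM, close to the lowest fibrosis library (1310 CPM), with 10.8 CPM of Prox1, above every fibrosis library. Hnf4a, which defines the cell type, was higher in every healthy library (14.4 to 304 CPM) than in any fibrosis library (1.11 to 2.87 CPM). In cirrhosis the hepatocyte sum was 2980 to 14400 CPM against 1300 to 27500 CPM in healthy LSECs. There 2 of the 8 markers fell with limma-voom (24.7% of all genes), 3 at an unadjusted p, 3 with edgeR and 4 with DESeq2. Hnf4a stood under 1 CPM in every acute library. Stellate cell markers moved too, with 5 of 7 tested higher in fibrosis than in acute LSECs (median 3.02). How far the other cell types account for Prox1 was not tested.

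In the TAA experiment, which shares no library with the CCl4 model, all 5 genes were lower in the group labelled TAA control. Ccl21 stood at 593, 621, 452, 2480 and 1250 CPM in the group labelled control and at 2.44, 1.97, 2.24, 5.49 and 5.38 CPM in the group labelled TAA control. Mmrn1 stood at 111, 111, 112, 393 and 304 CPM against 0.577, 0.300, 0.362, 2.17 and 2.55 CPM. For both the groups lay far apart, and replicates 14 and 15 were the highest of the group labelled TAA control. Pdpn stood at 9.30, 9.92, 10.2, 41.0 and 28.6 CPM against 0.272, 0.0334, 0.0658, 0.355 and 0.359 CPM, where the latter rest on 1 to 9 counts. Prox1 stood at 37.7, 53.4, 47.0, 74.4 and 46.2 CPM against 11.2, 15.9, 9.71, 16.9 and 15.02 CPM. These 2 genes did not overlap between the groups either. Reln stood at 198, 556, 288, 409 and 500 CPM against 171, 276, 139, 104 and 101 CPM, and here replicate 12 of the group labelled TAA control reached above replicate 1 of the group labelled control.

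The log2 fold change, coded TAA control minus control, was -8.14 (SE 0.62, adjusted p = 1.27e-05 in limma-voom) for Ccl21 and -7.78 (SE 0.98, adjusted p = 0.000149) for Mmrn1. Pdpn had -6.58 (SE 1.38, adjusted p = 0.00261). Prox1 and Reln differed less, with -1.92 (SE 0.21, adjusted p = 6.07e-05) and -1.31 (SE 0.33, adjusted p = 0.0072). All 5 were called lower, against 14.9% of 14376 genes (27.6% in either direction), and 4 of 5 did not overlap between the groups, against 17.4% of genes with all libraries labelled TAA control lower. Pdpn (1 to 9 counts in libraries labelled TAA control) and Mmrn1 (9 to 64 counts) passed the filter on low counts through the group labelled control, where they were high. Their lower calls and lack of overlap were thus largely set by the filter and are a description. The same 5 genes were called when each library was left out in turn and when replicates 14 and 15 were summed as 1. Of 8 stellate cell markers, 6 were also lower in the group labelled TAA control (108 to 114 against 376 to 797 CPM), as were 5 of 8 hepatocyte markers (646 to 1450 against 2210 to 5470 CPM), 3 of 4 tested mesothelial markers (1.53 to 3.73 against 4.56 to 6.65 CPM), and 2 of 2 tested reticular stroma markers, Ccl19 (-4.24) and Pdgfra (-3.41), with sums of 2.07 to 4.07 against 19 to 68.9 CPM. Cholangiocyte markers were lower in 4 of 4 tested (1.23 to 2.57 against 4.02 to 10.1 CPM), and blood endothelium markers in 3 of 7, with 1 higher (2650 to 2840 against 4340 to 5660 CPM). Their part in the lower levels of the 5 genes was not tested. Of 7 LSEC markers 0 were lower and 2 were higher.

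**Figure D3:**
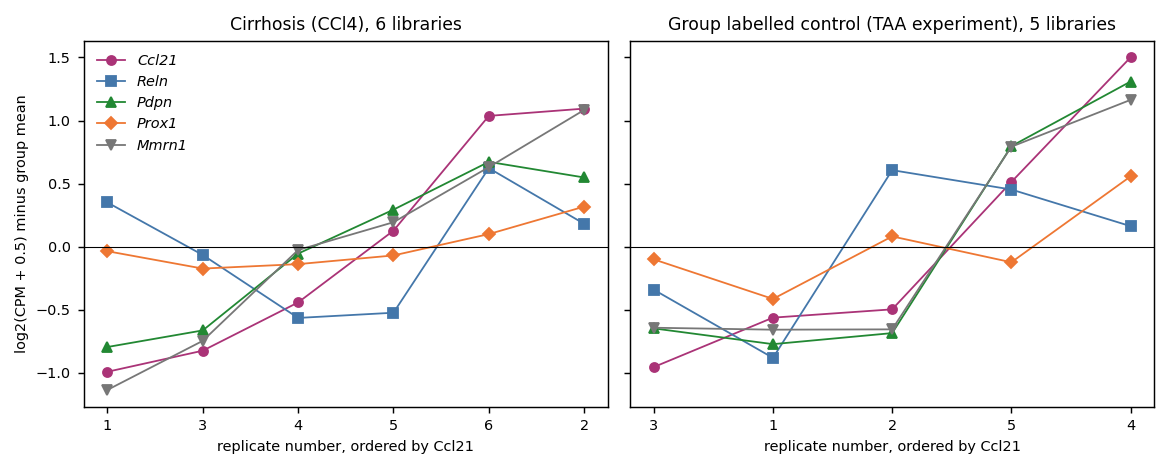
Log2(CPM + 0.5) of each gene minus its mean over the group, in the 6 cirrhosis libraries and the 5 libraries labelled control, ordered by Ccl21. Ccl21, Pdpn and Mmrn1 follow nearly the same order of libraries in cirrhosis, while Reln does not follow them.

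In cirrhosis, the libraries high in Ccl21 were also high in Mmrn1 and Pdpn. In cirrhosis replicates 1 to 6, Ccl21 was 504, 2144, 566, 739, 1096 and 2060 CPM, Mmrn1 was 65.6, 307, 86.0, 142, 166 and 224 CPM, and Pdpn was 10.8, 28.2, 11.9, 18.4, 23.5 and 30.8 CPM. The order of the libraries was the same for Ccl21 and Mmrn1, and Pdpn differed from it only in the order of replicates 2 and 6. As a description over these 6 libraries, Pearson's r of log2 CPM was 0.96 for Ccl21 and Mmrn1 (Spearman's rho 1.0), 0.96 for Pdpn and Mmrn1 (rho 0.94) and 0.96 for Ccl21 and Pdpn (rho 0.94). Without the 2 libraries farthest from the median of the first gene, r was 0.94, 0.82 and 0.98. No test is drawn from these values, because the genes were picked with the cirrhosis libraries in view.

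Ccl21 and Prox1 had r of 0.82 in cirrhosis (rho 0.66), which went to 0.095 without 2 libraries and so rests on them. Ccl21 and Reln had r of 0.34 (rho 0.14), and -0.84 without 2 libraries. In the 6 healthy libraries, where Mmrn1 is read from 4 to 23 counts, r of Ccl21 and Mmrn1 was 0.63 (rho 0.54). In the group labelled control, with 5 libraries and no correlation computed, replicates 4 and 5 held the 2 highest levels of Ccl21, Mmrn1 and Pdpn alike. The 2 cirrhosis libraries with most Ccl21 were replicate 2, which is the deepest of the series (46464289 counts), and replicate 6 (39494015 counts). The sum of reticular stroma markers was 49.5 CPM in replicate 2 and 31.0 CPM in replicate 6, against 31.1, 43.7, 27.4 and 13 CPM in replicates 1, 3, 4 and 5, and did not follow the order of Ccl21. Most of this sum was Pdgfra (9.98 to 43.6 CPM in cirrhosis), with at most 6.79 CPM of Ccl19 and 1.32 CPM of Cxcl13. Its order is thus mainly that of Pdgfra, a receptor of fibroblasts, and the part of reticular stroma was not tested.

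Genes with the profile closest to each of the 5 over the 22 CCl4 libraries were found by the root mean square difference of log2 CPM, centred on each gene's mean, among 13373 genes. For Ccl21 the closest was Mmrn1 (0.94), followed by Clic5 (1.71). For Mmrn1 it was Ccl21 (0.94), followed by Clic5 (1.23). Clic5 had group means of 4.12, 0.367, 1.17 and 99.3 CPM in healthy, acute, fibrosis and cirrhosis LSECs. For Pdpn the closest were Ptx3 (0.74), Trpc6 (0.81) and Fam205a (0.86), each with its highest mean in cirrhosis. For Prox1 they were Smarca2 and Atp2b4 (0.46 each) and Dnajb4 (0.47), and for Reln Myo19 (0.30), Prmt3 (0.30) and Nsun2 (0.32). The last 3 were highest in acute LSECs, as in Myo19 with 4.35, 61.5, 42.9 and 6.03 CPM over the 4 groups. The search returned different genes for Reln and Prox1 than for Ccl21 and Mmrn1, and it ranks likeness of level only. It includes the cirrhosis libraries with which the genes were picked, so nothing is read from the likeness of Ccl21 and Mmrn1.

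Other genes of the same pathways were taken from lists that held 47 symbols, of which 44 were found. In cirrhosis against healthy LSECs, 14 of 42 tested were higher and 6 lower (median log2 fold change 0.53, against 0.07 over all genes), with 27.1% of all genes called higher and 24.7% lower. In cirrhosis against fibrosis, 36 of 43 were higher and 4 lower (median 1.77, against 0.04), with 34.3% and 29.5% of all genes called. In acute against healthy LSECs 5 of 39 were higher and 22 lower (median -1.44, against -0.09), with 35.5% and 37.9% of all genes called. In fibrosis against healthy LSECs 10 of 40 were higher and 20 lower (median -0.92, against -0.03), with 35.3% and 34.9% called. Fibrosis against acute LSECs had 7 of 38 higher and 1 lower (median 0.39, against 0.00), with 10.2% and 0.732% of all genes called, and TAA control against control had 8 of 42 higher and 14 lower (median -0.36, against 0.03), with 12.7% of all genes called higher and 14.9% lower in the latter. The count of 7 was sensitive to single libraries, at 3 without acute replicate 1, acute replicate 3, fibrosis replicate 13 or fibrosis replicate 16, and 4 without acute replicate 2 or fibrosis replicate 12. The single lower gene became 2 without acute replicate 8 or fibrosis replicate 13.

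**Figure D4:**
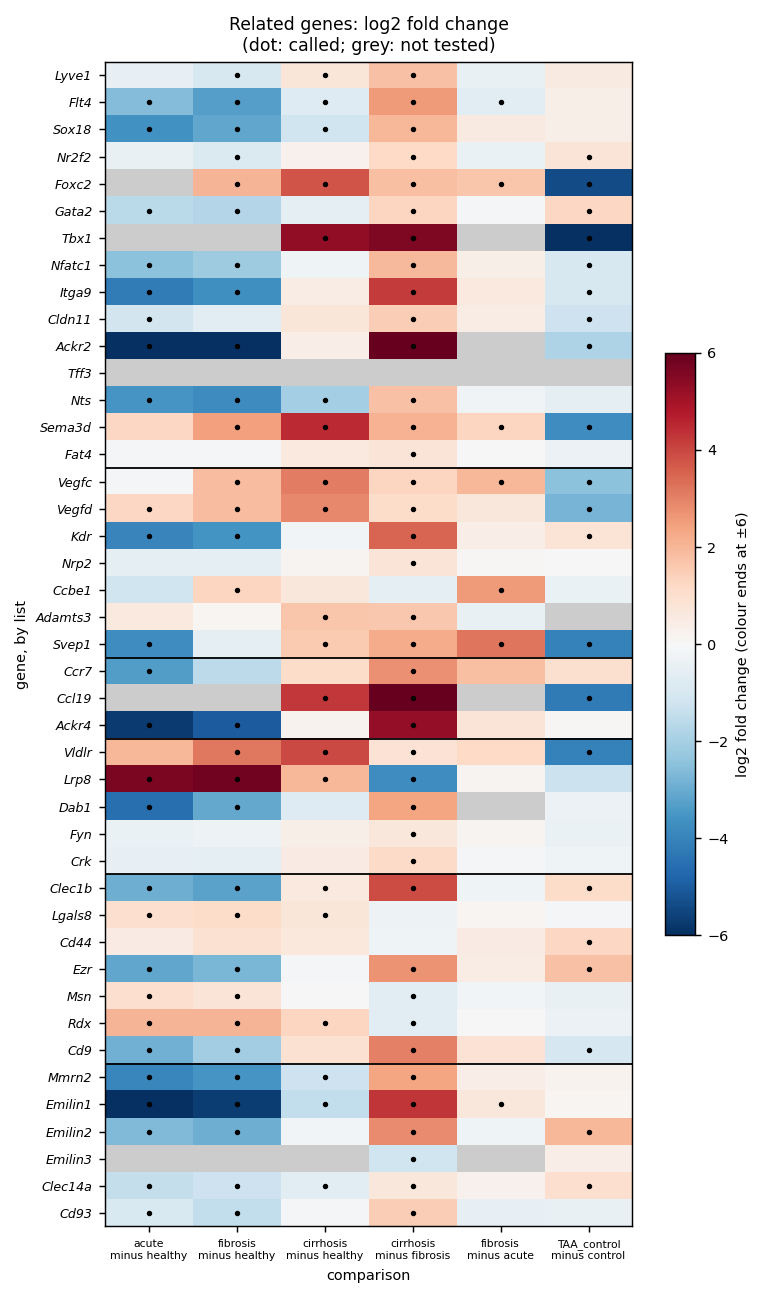
Log2 fold change of 43 of the 44 related genes found (rows, grouped by list) in the 6 comparisons (columns), with a dot where a gene was called and grey where it was not tested. Cirrhosis minus fibrosis is mostly red and acute minus healthy mostly blue, where over all 44 genes 36 of 43 tested were higher and 22 of 39 were lower.

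Of 15 genes of lymphatic identity tested in cirrhosis against healthy LSECs, 4 rose and 3 fell, shares close to those over all genes (27.1% higher and 24.7% lower). Those that rose were Tbx1 (log2 fold change 5.31), a transcription factor of pharyngeal and lymphatic development, the semaphorin Sema3d (4.48), Foxc2 (3.78), a transcription factor of lymphatic valves, and Lyve1 (0.75), a hyaluronan receptor that LSECs share with lymphatic endothelium, which was not called with edgeR (adjusted p = 0.0784) or DESeq2 (adjusted p = 0.0562). Those that fell were Nts (-2.05), Sox18 (-1.18), which acts upstream of Prox1, and Flt4 (-0.79), the receptor of VEGF-C. Tbx1 stood at 0.0684 CPM or below in healthy libraries and at 0.739 to 4.39 CPM in cirrhosis, so that it was a low-level gene throughout. It passed the filter on low counts there through the cirrhosis libraries. In acute against healthy LSECs 0 of 13 were called higher and 9 lower (35.5% and 37.9% of all genes), among them Itga9 (-4.21), a lymphatic valve integrin, and Sox18 (-3.64). Fibrosis against healthy LSECs had 2 of 14 higher (Foxc2 2.05, Sema3d 2.47) and 9 lower, with 35.3% of all genes called higher and 34.9% lower. In fibrosis against acute LSECs 3 of 13 rose (10.2% of all genes), among them Foxc2 (1.66) and Sema3d (1.28), and Flt4 fell (-0.67). In cirrhosis against fibrosis 15 of 15 rose (34.3% of all genes), a rise not particular to this list. There 7 of 7 LSEC, 6 of 6 macrophage, 7 of 8 hepatocyte, 6 of 8 stellate cell and 5 of 6 mesothelial markers rose too. Of 4 platelet markers tested, 1 rose and 1 fell. In the group labelled TAA control 8 of 15 were lower (14.9% of all genes), with -6.74 for Tbx1, -5.37 for Foxc2 and -3.73 for Sema3d. There 2 were higher (12.7% of all genes), Gata2 (1.26) and Nr2f2 (0.77). Tbx1 and Foxc2 passed the filter on low counts there through the group labelled control.

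VEGF-C drives the growth of lymphatic vessels, and its gene rose at 6 weeks and in cirrhosis. Vegfc had 1.77 to 5.83 CPM (median 3.95) in healthy, 2.56 to 5.12 in acute, 10.2 to 15.8 in fibrosis and 25.4 to 45.5 CPM (median 28.3) in cirrhosis LSECs. The acute libraries lay within the healthy range, and the fibrosis and cirrhosis libraries lay above both without overlapping each other. Its log2 fold change was 2.02 for fibrosis minus acute (limma-voom adjusted p = 0.00161), 3.05 for cirrhosis minus healthy (adjusted p = 2.69e-05) and -0.14 for acute minus healthy (adjusted p = 0.687). In cirrhosis against healthy LSECs 4 of 9 genes of the axis rose (27.1% of all genes), namely Vegfc, the second ligand Vegfd (2.90), Adamts3 (1.64), which trims VEGF-C, and Svep1 (1.57), a matrix protein, whereas Flt4 fell. In fibrosis against acute LSECs 3 of 9 rose (10.2% of all genes), with Svep1 (3.21) and Ccbe1 (2.55), a cofactor of ADAMTS3 that was not called with edgeR or DESeq2, beside Vegfc, and 1 lower, Flt4. Acute against healthy had 1 of 9 higher (Vegfd 1.25) and 4 lower (35.5% and 37.9% of all genes). Fibrosis against healthy had 3 higher and 3 lower (35.3% and 34.9% of all genes). Cirrhosis against fibrosis had 8 higher (34.3% of all genes). In the group labelled TAA control 4 of 8 were lower (14.9% of all genes), with -2.46 for Vegfc, -2.78 for Vegfd and -4.07 for Svep1, and 1 was higher (12.7% of all genes), Kdr (0.82).

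Of the partners of CCL21, the second CCR7 ligand Ccl19 rose in cirrhosis against healthy LSECs (log2 fold change 4.26), from 0.107 to 0.469 CPM to 2.58 to 6.79 CPM. Ccl19 passed the filter on low counts there through the cirrhosis libraries, where it was high, so no test is drawn from it. It held 0 counts in all 5 acute libraries. The receptor Ccr7 was measured at 12.9 to 34.8 CPM in cirrhosis against 1.39 to 30.3 CPM in healthy LSECs (1.10, adjusted p = 0.138) and was not called. The scavenging receptor Ackr4 fell by 5.74 on the log2 scale in acute and by 5.00 in fibrosis against healthy LSECs, and had 221 to 382 CPM in cirrhosis against 133 to 344 CPM in healthy LSECs (0.22, adjusted p = 0.389). Ackr4 and the LSEC markers were thus low in the same groups. In the group labelled TAA control 1 of 3 was lower (14.9% of all genes), Ccl19 (-4.24), which passed the filter there through the group labelled control. In cirrhosis against fibrosis all 3 rose (34.3% of all genes). In fibrosis against acute LSECs 0 of 2 were called by limma-voom and 0 by edgeR, and 1 rose with DESeq2 and 2 at an unadjusted p. There Ccr7 stood at 1.80 (limma-voom adjusted p = 0.114) and Ackr4 at 0.80 (adjusted p = 0.136). Over all genes, 27.1% were called higher in cirrhosis against healthy LSECs. Markers of reticular stroma rose as well, from 1.17 to 10 CPM in healthy to 13 to 49.5 CPM in cirrhosis LSECs (3 of 3 tested higher). These were Ccl19, which belongs to both lists, Pdgfra (2.96), which made up most of the sum, and Cxcl13 (2.65), a B cell chemokine. The other 2 of the list, Madcam1 and Tnfsf11, were under 1 CPM in every library, and the part of this cell type in the level of Ccl21 was not tested.

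Receptors of reelin differed from each other. Lrp8 (apolipoprotein E receptor 2) rose with Reln, by 5.66 in acute and 5.79 in fibrosis against healthy LSECs on the log2 scale. It had 1.14 to 6.63 CPM in healthy, 102 to 166 in acute, 139 to 180 in fibrosis and 7.85 to 15.7 CPM in cirrhosis LSECs. Lrp8 fell by 3.74 in cirrhosis against fibrosis LSECs, and was 1.99 higher in cirrhosis than in healthy LSECs (adjusted p = 0.000585 in limma-voom). Vldlr was 3.15 higher in fibrosis and 3.96 higher in cirrhosis than in healthy LSECs, at levels of at most 6.29 CPM. Dab1, the adaptor that both receptors need for the signal, fell by 4.50 in acute LSECs and stood at 0.253 CPM or below there. Of the 5 genes of this axis, 2 rose in cirrhosis against healthy LSECs (Lrp8, Vldlr), with 27.1% of all genes called higher. DESeq2 also called Dab1 lower there (adjusted p = 0.0369). In fibrosis against acute LSECs 0 of 4 were called by limma-voom (0 at an unadjusted p, with edgeR or with DESeq2). In the group labelled TAA control 1 of 5 was lower by limma-voom (Vldlr, -4.06), with 14.9% of all genes lower. There 2 were lower at an unadjusted p, with edgeR and with DESeq2. Lrp8 was called lower with edgeR (adjusted p = 0.0482) and with DESeq2 (adjusted p = 0.0144).

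The receptor of podoplanin, Clec1b (CLEC-2), which LSECs also carry, had 42.7 to 118 CPM in healthy, 6.23 to 10.7 in acute, 2.80 to 11.1 in fibrosis and 77.9 to 105 CPM in cirrhosis LSECs. It fell by 2.93 in acute and by 3.23 in fibrosis LSECs and rose by 0.61 in cirrhosis LSECs on the log2 scale, each against healthy ones. In the group labelled TAA control it was 1.11 higher, while Pdpn was lower. Of the 7 partners of podoplanin, 3 rose in cirrhosis against healthy LSECs (27.1% of all genes), with Rdx (1.30), which links membrane proteins to actin, and Lgals8 (0.71), a galectin that binds podoplanin, beside Clec1b. With edgeR and with DESeq2 2 of the 7 rose, and Clec1b was not called. In fibrosis against acute LSECs 0 of the 7 were called by limma-voom and 0 by edgeR, and 1 rose at an unadjusted p and with DESeq2. Relatives of Mmrn1 are other EMILIN and multimerin genes and their partners. In cirrhosis against healthy LSECs 0 of 5 rose and 3 fell (27.1% and 24.7% of all genes). Those that fell were Emilin1 (-1.47), a matrix protein of elastic fibres, Mmrn2 (-1.25), an endothelial matrix protein, and Clec14a (-0.62), which binds MMRN2. In cirrhosis against fibrosis LSECs 5 of 6 rose (34.3% of all genes) and 1 fell (29.5%). In acute against healthy LSECs 5 of 5 fell (37.9% of all genes). In the group labelled TAA control 0 of 6 were lower and 2 were higher (14.9% and 12.7% of all genes), Emilin2 (1.98) and Clec14a (1.03). Platelets also hold multimerin-1. The sum of their 5 markers was 12.6 to 51.6 CPM in healthy and 10.9 to 36.3 CPM in cirrhosis LSECs, 0 of 4 tested rows were called in that comparison by limma-voom (0 at an unadjusted p, with edgeR or with DESeq2), and Ppbp, a platelet chemokine gene, was under 1 CPM in every library.

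**Figure D5:**
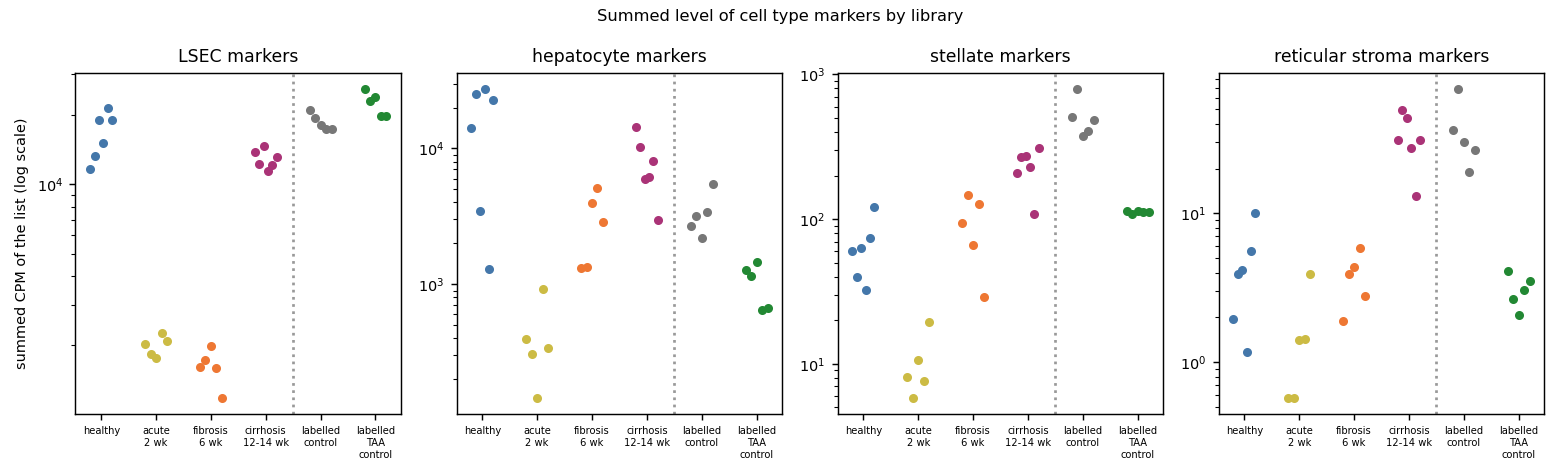
Summed CPM of markers of LSECs, hepatocytes, stellate cells and reticular stroma in every library, on a log scale, with 1 point per library. LSEC markers are low in acute (1760 to 2260) and fibrosis (1180 to 1980) libraries, and stellate cell and reticular stroma sums are highest in cirrhosis among the CCl4 groups by median.

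Markers of other cells complete the picture of what the libraries held. In cirrhosis against healthy LSECs, 6 of 8 stellate cell markers rose (108 to 310 CPM in cirrhosis), with 27.1% of all genes called higher and 24.7% lower. Of 5 tested cholangiocyte markers 2 rose (7.39 to 15 against 2.07 to 30.3 CPM). With edgeR 1 rose, with DESeq2 1 rose and 1 fell, and at an unadjusted p 3 rose. Of 6 macrophage markers 0 were called by limma-voom, edgeR or DESeq2 and 1 at an unadjusted p (466 to 1900 against 146 to 2070 CPM). Of 6 lymphocyte markers 1 fell (9.42 to 21.6 against 11.4 to 172 CPM). With edgeR and with DESeq2 2 of these fell, and at an unadjusted p 2 rose and 2 fell. Of 7 blood endothelium markers 2 rose and 2 fell (3560 to 6570 against 3930 to 6930 CPM), and of 7 LSEC markers 2 fell and 1, Lyve1, rose with limma-voom, against 0 higher with edgeR and with DESeq2. In cirrhosis replicates 1 to 6 the sum of stellate cell markers was 209, 269, 274, 229, 108 and 310 CPM. Replicate 5, the lowest, had 1096 CPM of Ccl21. Replicate 6, the highest, had 2060 CPM of Ccl21, and replicate 1, with the lowest Ccl21 (504 CPM), had the second lowest sum. Whether cells of these kinds, or lymphatic endothelial cells in the preparation, carried the 5 genes was not tested.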

How the data were processed

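RNA-seq covered LSECs in 32 libraries (CCl4 model 22, TAA experiment 10). The authors deposited expected counts for 32623 genes per library, estimated with RSEM after Trim Galore and STAR on Rnor_6.0, unnormalized and not pooled. Values of the 5 genes were whole (within 0.005) in 32 of 32 libraries. RSEM divides reads that fit several genes, so near-identical copies are less certain.

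Counts were rounded, filtered (filterByExpr), scaled with TMM and fitted pairwise with limma-voom without covariates (R 4.3.3, limma 3.58.1, edgeR 4.0.16, DESeq2 1.42.0), after a test on simulated data. Genes were called at a Benjamini-Hochberg adjusted p under 0.05 over all genes tested and a fold over 1.5. Log2 CPM had a pseudocount of 0.5. Exact permutation tests were two-sided. Intervals and limits from counts cover counting error only. The methods describe separate LSEC isolations, while the labels tie no library to a rat.

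Groups and replicate numbers came from the labels, and 12 to 14 weeks from the design text. The genes and lists were chosen with earlier results of these data known. Named are the 5 genes, called genes of 6 related lists, markers of 10 cell types and, per gene, the 3 closest profiles, except for results that are not reported here. Of the listed symbols, 5 were not found. Sequences are RefSeq's on GRCr8, not the build of the reads, and gene positions on Rnor_6.0 were not used here. Alternatives were edgeR, DESeq2, other scaling, no filter, 1 fit over all CCl4 groups, unadjusted p, other pseudocounts, the replicate number as a block, each library left out and, chosen after seeing the data, replicates 14 and 15 labelled TAA control summed. Plots were made in Python 3.11.15 (matplotlib 3.10.9).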

Additional observations from a re-analysis of the deposited data

Results flagged for a closer look

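Total counts and the levels of the 5 genes were examined for a library far from its group in 36 sets of libraries, of which chance would mark about 1.8, and 2 were marked, both for depth. Replicate 4 of the acute group had a total of 36916992 counts, while the other 4 had 32037715 to 32986854. Replicate 5 of the group labelled control had 32631606 counts, while the other 4 had 27589168 to 28485839. No library stood apart in this way in Ccl21, Mmrn1, Reln, Pdpn or Prox1.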

How the results depend on the processing

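Over the alternatives run, no fold change of the 5 genes turned its direction except that of Pdpn in fibrosis minus acute, which was not called, and no call of the 5 was lost in limma-voom, edgeR or DESeq2. Those that changed are as follows. For fibrosis minus acute, the log2 fold change of Ccl21 passed the threshold with edgeR (1.52), DESeq2 (1.52) and an unadjusted p (1.29), and ranged from 1.01 to 1.62 with each library left out. The number of genes called among the 5 was then 2 with each of these 3 settings and 1 to 2 with a library left out, instead of 1. Related genes called higher in that comparison were 3 in 1 fit over all CCl4 groups, instead of 7, and 3 to 9 with a library left out, and those called lower 1 to 2. With library size only, without TMM, the median of all genes moved from -0.09 to 0.32 in acute minus healthy, from -0.03 to 0.37 in fibrosis minus healthy and from 0.07 to 0.42 in cirrhosis minus healthy, and Reln read 3.79 in acute and 3.53 in fibrosis minus healthy. With that scaling, 4 of the pairs of genes within cirrhosis passed an exact permutation test adjusted over 20 pairs instead of 0, and nothing is read from this test because the genes were picked with these libraries in view. Mmrn1 in cirrhosis minus fibrosis ranged from 10.1 to 11.3 with a library left out. The exact permutation test of Reln in the TAA experiment lost its threshold in 8 of the libraries left out in turn. The cause of these changes was not tested.

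Replicate numbers were not taken as pairs, since deviations of same-numbered libraries correlated at -0.24 to 0.29 between cirrhosis and healthy and at 0.03 to 0.19 between acute and healthy libraries. With the replicate number as a block, Pdpn in acute minus healthy read 0.43 instead of 1.53, Ccl21 read -3.68, and 6 related genes were called higher and 22 lower. In cirrhosis minus healthy, the block gave 8.33 for Ccl21 and 8.72 for Mmrn1, with 13 related genes higher and 6 lower. The other comparisons share fewer than 2 numbers. Depth limits Mmrn1 and Ccl21 before cirrhosis and Pdpn in the group labelled TAA control.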
